A study of Drosophila melanogaster with 18 samples.

Results

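The genes that encode the proteasome, the large protease that degrades ubiquitin-tagged proteins, were followed in early Drosophila melanogaster embryos with and without the ZZ domain of the RNA-binding protein Orb2. They were chosen by name, as every gene whose FlyBase symbol starts with Prosalpha, Prosbeta, Rpn or Rpt followed by a digit. The annotation holds 48 such genes. Of these, 32 are the canonical subunits and 16 are paralogs, 12 with an R and 4 with a T in the symbol. At least 1 of the 3 tables listed 36 of the 48, out of 9236 genes listed in all. These were all 32 canonical genes and 4 paralogs, Prosalpha1R, Rpt3R, Rpt6R and Prosbeta2R2. The remaining 12 paralogs were in no table and have no value here.

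The embryos came from 2 genotypes, orb2-delta-zz, which lacks the ZZ domain of Orb2, and wild type, the w1118 stock described as the control before injection. Total RNA depleted of ribosomal RNA was sequenced at 3 ages, 0-1h, 1-2h and 2-3h counted from egg laying. Each of the 6 groups has 3 libraries, 18 in all. The flies were kept at 25 °C in a cycle of 12 hours of light and dark, and each library is a pool of whole embryos. Nothing in the labels says whether the 3 libraries of a group came from separate collections, so the p-values measure the spread between these libraries only. Values are the authors' normalized counts, scaled between the 6 libraries of a time point, and their TPM, which share out a fixed total over transcripts after correction for their length and were used to compare genes with each other. In whole-embryo RNA, fewer cells that hold a transcript and less of it per cell cannot be told apart. The sample titles name no separate lines within a genotype. Loss of the ZZ domain thus cannot be told apart from any other difference between the stocks, and genotype effect here means only the difference between them.

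The 26S proteasome consists of a core particle and a regulatory particle. The core is a stack of rings: alpha subunits form the outer rings and the gate, and beta subunits form the inner rings, which hold the proteolytic sites. The regulatory particle has a base, with a ring of ATPases (Rpt) that unfold substrates, and a lid, whose subunit Rpn11 removes ubiquitin. In the early embryo the proteins and mRNAs are first those loaded by the mother, and many of these are cleared while the zygotic genome is switched on. Orb2 is a translational regulator that binds mRNAs, and the ZZ domain is a zinc-binding fold near its C-terminus.

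The libraries differed in ways that touch the results below. The orb2 gene itself had 2156, 2388 and 2133 normalized counts in orb2-delta-zz at 0-1h, against 2900, 2698 and 2916 in wild type (log2 fold change -0.35, limma adjusted p = 0.00233). Its log2 fold change was -0.39 at 1-2h and -0.80 at 2-3h, with adjusted p of 0.0601 and 0.398. Without the first wild type library these were -0.46 and -1.27, with adjusted p of 0.0289 and 0.00618. Without the second wild type library of 1-2h the value was -0.31 (adjusted p = 0.0549), and without the third of 2-3h it was -0.45 (adjusted p = 0.589). The sources used here do not say which bases were removed, so these counts are no check of the genotype. At 2-3h, 9 maternal transcripts summed to 1360, 1411 and 1425 TPM in orb2-delta-zz, against 834, 1516 and 2280 TPM in wild type. The first wild type library of 2-3h was thus low in maternal RNA and the third high. At 1-2h, 13 early zygotic transcripts summed to 1011, 896 and 1088 TPM in orb2-delta-zz and to 806, 393 and 1017 TPM in wild type, where the second library stood low. The median log2 fold change of these 13 was -0.44 at 0-1h (12 lower in orb2-delta-zz), 0.45 at 1-2h (13 higher) and -0.25 at 2-3h (10 lower). For the 9 maternal transcripts it was 0.09 at 0-1h (8 higher), 0.000689 at 1-2h (5 higher) and -0.27 at 2-3h (7 lower). Limma called 1 gene of each list at 0-1h and 0 later, beside 21.3%, 7.37% and 3.28% of all genes at the 3 time points. Late embryo markers, of which 5, 6 and 8 of 8 were listed, summed to 11.6, 44.6 and 235 TPM on average in orb2-delta-zz and to 26.5, 143 and 367 TPM in wild type. Obp99a made up most of these sums, with 135 TPM in orb2-delta-zz and 281 TPM in wild type at 2-3h, where Act87E, elav and nrv2 had higher means in orb2-delta-zz. Of 19 testis markers, the tissue where several of the R and T paralogs are known to be used, 3, 3 and 5 were listed, and their sum at 0-1h was 2.80 TPM in orb2-delta-zz and 3.12 TPM in wild type. Within it mia was lower in orb2-delta-zz (log2 fold change -1.29, adjusted p = 0.00249) and tomb higher (2.39, adjusted p = 0.0190). The role of these differences in the results below was not tested, apart from the values given without single libraries.

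The canonical subunit mRNAs, taken without the copy Prosalpha1R, were abundant maternal messages with a similar median and sum in both genotypes. At 0-1h their median was 273 TPM in orb2-delta-zz and 269 TPM in wild type, against 52.3 TPM in orb2-delta-zz and 49.97 TPM in wild type over all listed genes. In both genotypes, 26 of 32 were in the highest decile of genes by TPM. Together the 32 genes summed to 9273 ± 153 TPM in orb2-delta-zz and 9267 ± 163 TPM in wild type at 0-1h (SD, n = 3 each), which is 0.928% of the total in each. The highest was Prosalpha7, an alpha ring subunit, at 598 ± 15.6 TPM in orb2-delta-zz and 606 ± 11.3 TPM in wild type. The lowest was Prosalpha1, also of the alpha ring, at 69.7 ± 17.4 TPM in orb2-delta-zz and 96.4 ± 10.1 TPM in wild type. All other canonical subunits lay between these levels, within a span of 8.58-fold in orb2-delta-zz and 6.28-fold in wild type. The level of Prosalpha1 is uncertain, since its reads can be split with a second copy, Prosalpha1R, which is counted as a paralog here. Both copies together had 436 TPM in orb2-delta-zz and 1113 TPM in wild type at 0-1h. The rank and the span thus hold only for the values as listed.

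The order within each subcomplex at 0-1h is given by its ends, ranked by the mean over both genotypes. In the beta ring Prosbeta2, the subunit with trypsin-like activity, was highest at 315 ± 11.3 TPM in orb2-delta-zz and 320 ± 14.4 TPM in wild type. Prosbeta7 was lowest, at 206 ± 12.0 TPM in orb2-delta-zz and 192 ± 8.25 TPM in wild type. By genotype the ends differed, since Prosbeta4 had 318 TPM and Prosbeta5 191 TPM in orb2-delta-zz, and Prosbeta1 had 321 TPM in wild type. Among the base ATPases Rpt6 was highest, at 465 ± 12.0 TPM in orb2-delta-zz and 445 ± 20.2 TPM in wild type, and Rpt5 was lowest, at 216 ± 6.13 TPM in orb2-delta-zz and 216 ± 6.52 TPM in wild type. Of the other base subunits, Rpn13, a ubiquitin receptor, was lowest at 196 ± 4.75 TPM in orb2-delta-zz and 179 ± 4.77 TPM in wild type. Rpn2, a large scaffold, was highest at 318 ± 15.5 TPM in orb2-delta-zz and 309 ± 16.1 TPM in wild type. In the lid, Rpn11, the deubiquitinating subunit, had 392 ± 1.55 TPM in orb2-delta-zz and 349 ± 1.65 TPM in wild type, and Rpn8, its structural partner, had 131 ± 7.51 TPM in orb2-delta-zz and 146 ± 13.7 TPM in wild type.

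**Figure D1:**
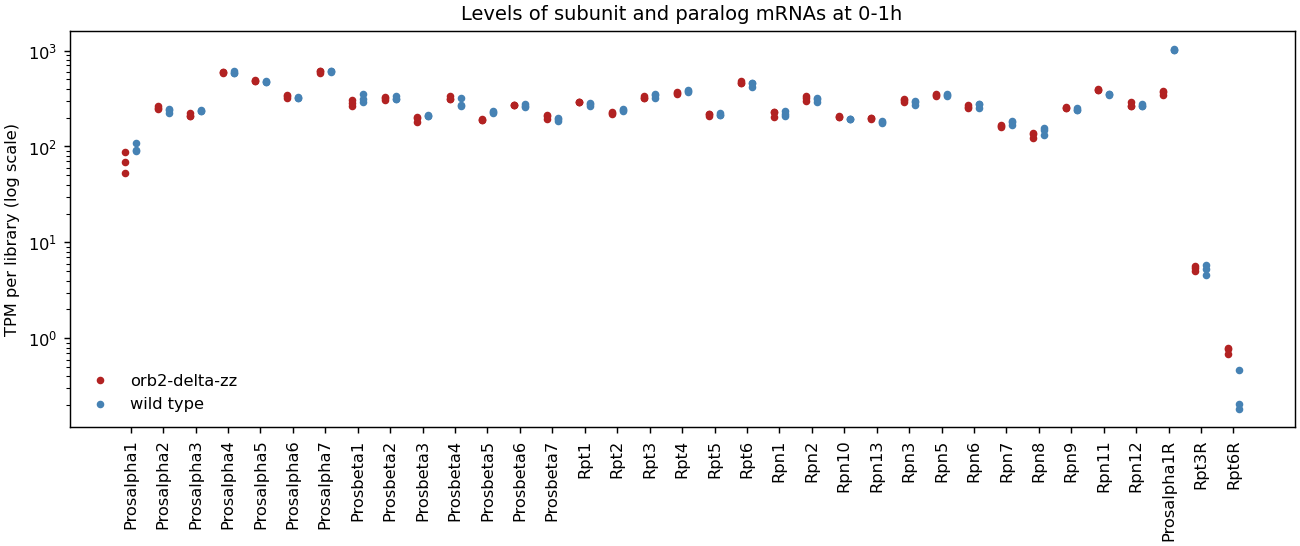
Level of each canonical subunit mRNA and of the 3 paralogs listed at 0-1h, in TPM on a log axis, with 1 point per library (red, orb2-delta-zz; blue, wild type). The canonical genes lie between 53.0 and 614 TPM, Prosalpha1R shows the widest gap between genotypes, and Rpt3R and Rpt6R lie far below the rest.

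Prosalpha1R was the member with the largest genotype effect among those called. This gene (FBgn0050382, chromosome arm 2R, 7830413 to 7831771, minus strand, Ensembl BDGP6.54) is a second copy of Prosalpha1, which encodes an alpha ring subunit. At 0-1h it had 7076, 7160 and 6854 normalized counts in orb2-delta-zz, against 19296, 21462 and 19282 in wild type. At 1-2h it had 7499, 8600 and 7776 in orb2-delta-zz, against 23907, 19201 and 23202 in wild type. At 2-3h it had 7343, 7168 and 7102 in orb2-delta-zz, against 20173, 22177 and 23677 in wild type. Every orb2-delta-zz library was below every wild type library of its time point. Within each genotype the values stayed close to each other, though counts were scaled within each time point only. The gene fell in orb2-delta-zz, with log2 fold changes of -1.51 at 0-1h (SE 0.0505, limma adjusted p = 7.95e-08), -1.47 at 1-2h (SE 0.105, adjusted p = 0.000222) and -1.61 at 2-3h (SE 0.0897, adjusted p = 0.000621). Of the members tested, it alone passed the test with a change of 1 or more in size, a mark reached at 0-1h by 4.17% of all genes, at 1-2h by 3.35% and in the oldest embryos by 2.52%.

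In wild type embryos Prosalpha1R was the most abundant member. Its TPM averaged 366 ± 17.97 in orb2-delta-zz and 1016 ± 14.3 in wild type at 0-1h, 370 ± 32.1 in orb2-delta-zz and 965 ± 61.9 in wild type at 1-2h, and 319 ± 13.5 in orb2-delta-zz and 944 ± 69.4 in wild type at 2-3h (SD, n = 3 each). Its genotype effect at 2-3h differed from that at 0-1h by -0.10 on the log2 scale (SE 0.123), which did not pass the test (adjusted p = 0.838). The call held under all 15 alternatives at each time point, among them the sum of both copies given below. Without single libraries the log2 fold changes of Prosalpha1R lay between -1.53 and -1.46 at 0-1h. They lay between -1.57 and -1.41 at 1-2h and between -1.67 and -1.55 at 2-3h.

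The parent copy, Prosalpha1 (FBgn0263121, chromosome arm 2R, 7827303 to 7828678, minus strand), lies 1734 bases away on the same strand. Both genes are annotated with a coding length of 732 bases, 244 codons, and with the same lengths of exon 2 (100 bases), exon 3 (177 bases) and exon 4 (580 bases). Reads from sequence that the copies share can be split between them by the counting, so the value of either copy alone is uncertain. Prosalpha1 had 1329, 1009 and 1764 normalized counts in orb2-delta-zz at 0-1h, against 1748, 2287 and 1779 in wild type. These ranges overlapped, and the log2 fold change of -0.53 (SE 0.178) did not pass the test (adjusted p = 0.0623). Without the third orb2-delta-zz library it was -0.73 and passed (adjusted p = 0.00733), and without the second it was -0.33 (adjusted p = 0.166). Prosalpha1 also had the highest SD among libraries of all canonical genes in 4 of the 6 groups, 0.402 in orb2-delta-zz and 0.217 in wild type on the log2 scale at 0-1h, where the median canonical gene had 0.0435 and 0.0592.

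Both copies were also summed, an alternative added after the data were seen. At 0-1h the sum was 8404, 8169 and 8617 normalized counts in orb2-delta-zz, against 21043, 23749 and 21060 in wild type. At each time point the sum was lower in every orb2-delta-zz library than in every wild type library. In limma fits of the whole table its log2 fold changes were -1.38 at 0-1h (SE 0.0544, adjusted p = 1.81e-07), -1.32 at 1-2h (SE 0.0812, adjusted p = 9.21e-05) and -1.46 at 2-3h (SE 0.0867, adjusted p = 0.000774). In TPM the pair had 436 in orb2-delta-zz and 1113 in wild type at 0-1h, 442 in orb2-delta-zz and 1041 in wild type at 1-2h, and 381 in orb2-delta-zz and 1015 in wild type at 2-3h. Prosalpha1R made up 79.8% to 87.8% of the pair's TPM in orb2-delta-zz libraries of 0-1h and 90.5% to 91.8% in wild type libraries.

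**Figure D2:**
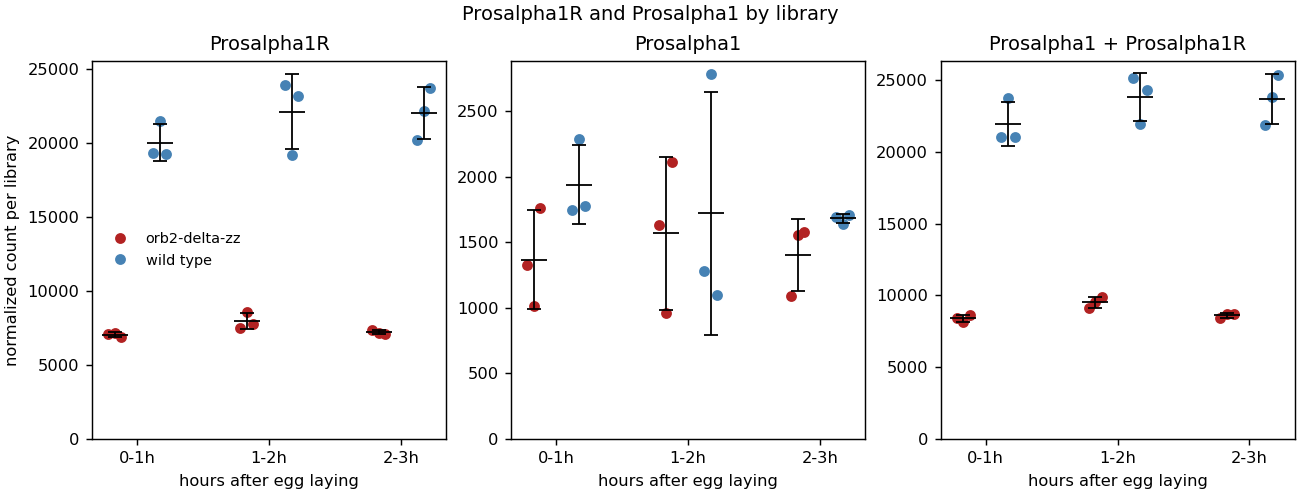
Normalized counts of Prosalpha1R, of Prosalpha1 and of their sum, with 1 point per library and black lines for the mean and SD of 3 libraries (red, orb2-delta-zz; blue, wild type). The 9 orb2-delta-zz libraries hold 6854 to 8600 counts of Prosalpha1R, all below the 19201 to 23907 of the 9 wild type libraries, while Prosalpha1 overlaps between genotypes at 0-1h and 1-2h. Counts were scaled within each time point only, so libraries of different time points are not on one scale.

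Genes beside this pair were examined because of its size of change, and those named here were chosen after their values were seen. Within 50 kb on either side, 15 genes were tested, Prosalpha1 among them. At 0-1h 3 of them were higher and 5 lower in orb2-delta-zz, 53.3% of the 15, against 21.3% of all genes called at that time point. At 1-2h 1 was higher and 2 were lower, 20.0% against 7.37%, and at 2-3h 0 were higher and 1 was lower, 6.67% against 3.28%. The gene between the copies, CG18853, overlaps the end of Prosalpha1R by 17 bases on the opposite strand. It had 254, 153 and 117 normalized counts in orb2-delta-zz at 0-1h, against 702, 1151 and 871 in wild type (log2 fold change -2.42, adjusted p = 0.000176). At 2-3h each orb2-delta-zz library listed it at 0, against 416, 263 and 242 counts in wild type. The gene phr, a DNA photolyase that overlaps Prosalpha1 by 17 bases, also fell, with log2 fold changes of -0.60 at 0-1h and -1.42 at 1-2h and adjusted p of 2.55e-05 and 0.00131. At 2-3h the log2 fold change of phr was -0.57 and was not called (adjusted p = 0.295). The last exons of CG18853 and phr both have 386 bases, so reads may be split between these genes too. The other genes called at 0-1h were CanB2, TTLL12 and Atg10, which were higher, and CG30383, puml and Nop17l, which were lower. The cause of these differences was not tested, and a local difference between the stocks cannot be told apart from loss of the ZZ domain.

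The other paralogs were rare transcripts. Rpt3R, a relative of the ATPase Rpt3, had 148, 166 and 164 normalized counts in orb2-delta-zz at 0-1h, against 157, 145 and 171 in wild type, or 5.37 and 5.20 TPM on average. At 2-3h its libraries did not overlap, with 311, 305 and 346 counts in orb2-delta-zz and 434, 406 and 383 in wild type, but the log2 fold change of -0.35 (SE 0.140) did not pass the test (adjusted p = 0.290). Rpt6R, a relative of the ATPase Rpt6, had 23.0, 19.7 and 24.4 counts in orb2-delta-zz at 0-1h, against 5.44, 15.1 and 6.10 in wild type. All its orb2-delta-zz libraries were above all wild type libraries, and the log2 fold change of 1.37 (SE 0.482) gave an adjusted p of 0.0732. Without the second wild type library it was 1.78, with an adjusted p of 0.0303. Without the first it was 1.12 and was not called, and of 12 alternatives only 1 gave a call. At 1-2h and 2-3h the Rpt6R libraries overlapped, with log2 fold changes of -0.24 and -0.33. Prosbeta2R2, a relative of Prosbeta2, was under the minimum mean of 10 counts at 1-2h, with 12.9, 6.97 and 11.4 counts in orb2-delta-zz and 6.30, 5.30 and 8.84 in wild type, and was not tested there. At 2-3h it had 36.0, 19.2 and 28.2 counts in orb2-delta-zz and 55.0, 35.6 and 20.96 in wild type, which overlap (log2 fold change -0.35, adjusted p = 0.738). Leaving out single libraries moved this value between -0.70, without the third wild type library, and -0.02, without the first.

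The canonical subunit genes, with Prosalpha1 taken without its copy Prosalpha1R, differed by little between genotypes. Of 96 log2 fold changes, 32 genes at 3 time points, 90 were under 0.3 in size and 95 under 0.5. At 0-1h, 0 canonical genes rose and 4 fell in orb2-delta-zz, 12.5% of the 32, while 21.3% of all 7559 genes tested were called, 11.2% higher and 10.1% lower. At 1-2h 1 rose and 1 fell, against 7.37% of 8095 genes called, 3.52% higher and 3.85% lower. At 2-3h 0 of 32 were called by limma, against 3.28% of 9014 genes, 1.55% higher and 1.73% lower. There 5 of the 32 had an unadjusted p under 0.05, and the share of all genes under this mark was not computed. With TPM in place of normalized counts, 1 rose and 1 fell at 0-1h and 0 were called at 1-2h and 2-3h. Over all genes, the same change of values moved the share of calls that were higher to 64.4% with TPM, against 52.4% with normalized counts, at 0-1h. At 1-2h that share was 62.4% with TPM and 47.7% with normalized counts, and at 2-3h 61.2% and 47.3%.

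**Figure D3:**
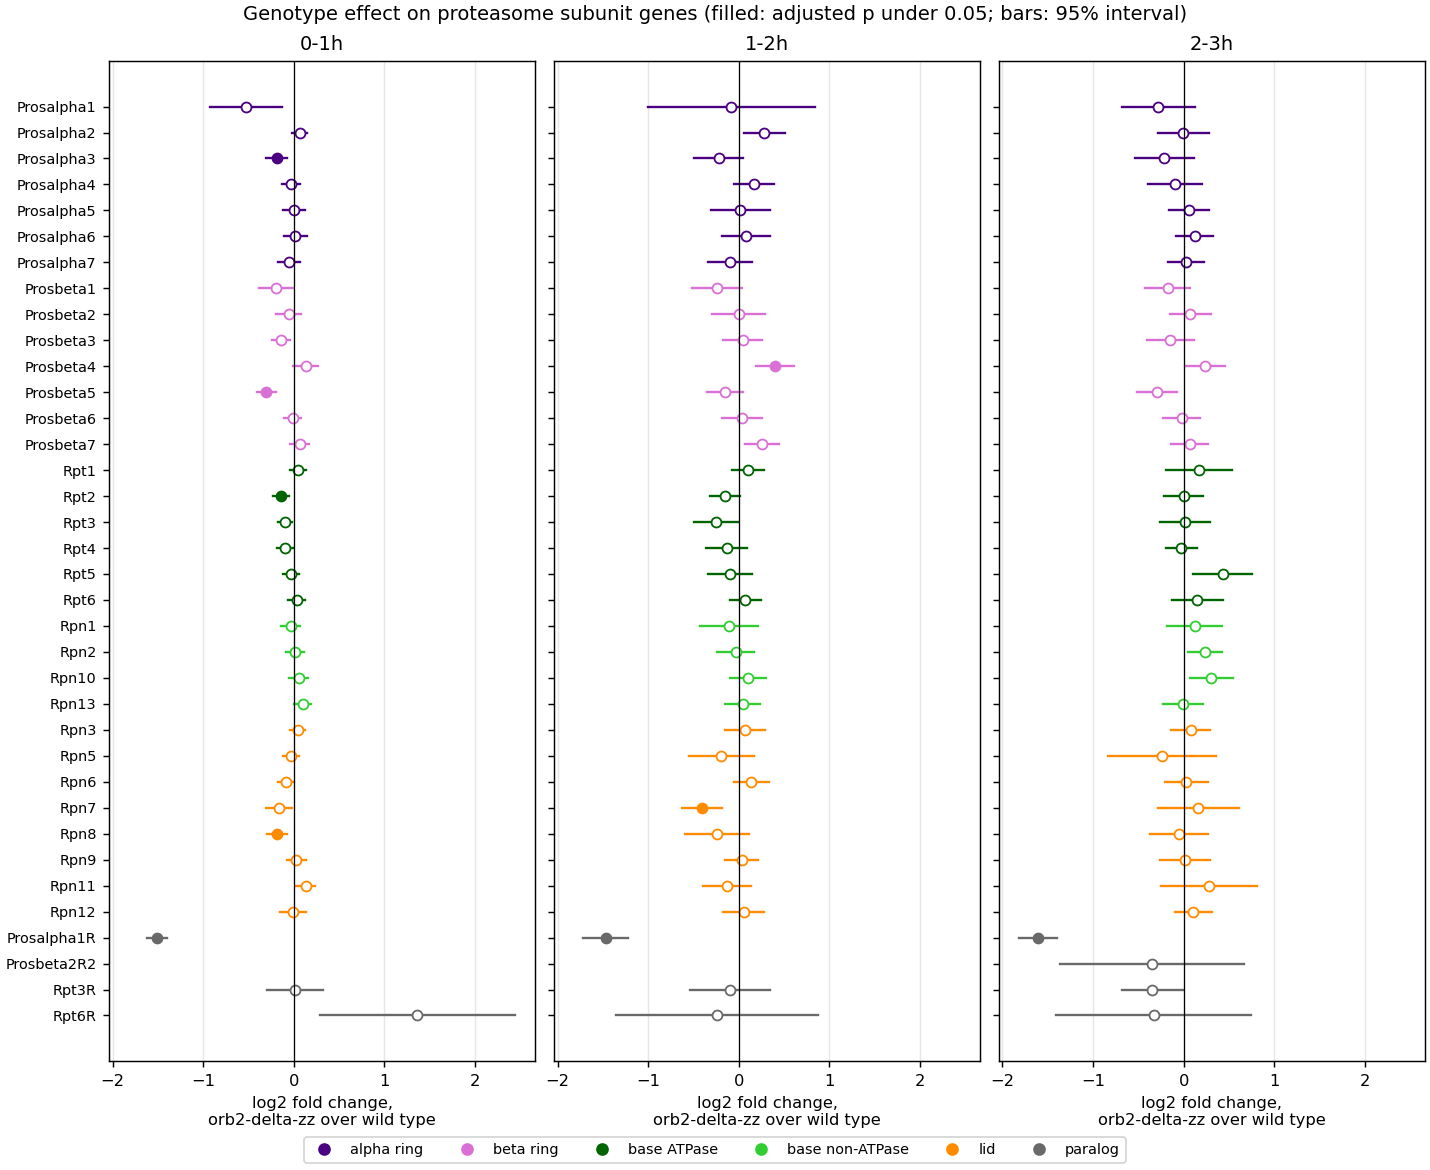
Log2 fold change of each tested member, orb2-delta-zz over wild type, with its 95% interval from limma, at each time point (filled, adjusted p under 0.05). Prosalpha1R lies between -1.61 and -1.47 in the 3 panels, and the canonical subunits lie near 0, within -0.53 and 0.43.

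The median log2 fold change of the 32 canonical genes was -0.03 at 0-1h, 0.01 at 1-2h and 0.03 at 2-3h, beside -0.01, -0.01 and -9.42e-05 over all genes tested. With TPM the canonical median was 0.01 at 0-1h, a reversed sign, 0.10 at 1-2h and 0.07 at 2-3h, beside 0.03, 0.09 and 0.05 over all genes. At 0-1h the libraries of 4 canonical genes were all above and those of 8 all below wild type, 12 of 32, while the libraries of 38.9% of all genes did not overlap, 20.1% above and 18.9% below. At 1-2h these numbers were 3 and 4, beside 32.8% of all genes, 16.5% above and 16.3% below. At 2-3h they were 6 and 2, beside 23.5% of all genes, 12.2% above and 11.4% below. For 0 of 32 canonical genes were the libraries apart one way at every time point. By subcomplex the medians lay between -0.11, for the base ATPases at 1-2h, and 0.18, for the other base subunits at 2-3h. The sign was positive at all 3 time points for 9 genes and negative at all 3 for 8, and the share of all genes with the same sign throughout was not computed.

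In the beta ring, Prosbeta5, which carries the chymotrypsin-like site, fell in orb2-delta-zz at 0-1h. It had 4510, 4247 and 4481 normalized counts in orb2-delta-zz, against 5451, 5709 and 5168 in wild type, and fell by 0.30 on the log2 scale (SE 0.0482, adjusted p = 0.00193 in limma). Its genotypes were apart, and the call held without each of the 6 libraries and with TPM and in the joint fit of all 18 libraries. At 1-2h its log2 fold change was -0.15 (adjusted p = 0.333). At 2-3h it had 6883, 6192 and 6392 counts in orb2-delta-zz, against 7463, 7996 and 8435 in wild type. All orb2-delta-zz libraries were again below wild type, with a log2 fold change of -0.30 that did not pass the test (adjusted p = 0.180). It passed without the first wild type library (adjusted p = 0.0458), a fit that called 1666 of all genes against 296. Without the third wild type library it was -0.25, and it was not called without any other single library. Prosbeta5 overlaps Lsm10 on the opposite strand by 81 bases.

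Prosbeta4, a structural subunit of the same ring, rose in orb2-delta-zz at 1-2h. It had 6292, 5860 and 5703 counts in orb2-delta-zz, against 4113, 4482 and 4960 in wild type (log2 fold change 0.40, SE 0.0922, adjusted p = 0.0421). No libraries overlapped, but of the 6 libraries only the second wild type library could be left out without losing the call, and the adjusted p without one of the others lay between 0.0540 and 0.150. With TPM the adjusted p was 0.0583. At 0-1h and 2-3h its log2 fold changes were 0.13 and 0.24, with adjusted p of 0.157 and 0.266. Prosbeta1, the subunit with caspase-like activity, had log2 fold changes of -0.20, -0.24 and -0.18 at the 3 time points and was not called at any (lowest adjusted p = 0.127). At 0-1h it was -0.29 and called without the third wild type library (adjusted p = 0.0303), but -0.13 without the second orb2-delta-zz library and -0.14 without the first wild type library.

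In the alpha ring, Prosalpha3 had 4500, 4122 and 4328 counts in orb2-delta-zz at 0-1h, against 4726, 5184 and 4863 in wild type, and fell by 0.19 on the log2 scale (SE 0.0502, adjusted p = 0.0246). The libraries did not overlap. The call was lost without the second or the third library of either genotype, where adjusted p lay between 0.0513 and 0.0979, and with TPM (0.0697). Its log2 fold change was -0.22 at 1-2h and -0.21 at 2-3h, where it was not called. Prosalpha2 had 5666, 5113 and 5566 counts in orb2-delta-zz at 1-2h, against 3983, 4673 and 4798 in wild type. These libraries did not overlap, and the log2 fold change of 0.28 (SE 0.0959) did not pass the test (adjusted p = 0.124).

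Among the base ATPases, Rpt2 had 7563, 7507 and 7661 counts in orb2-delta-zz at 0-1h, against 8183, 8631 and 8248 in wild type, and fell by 0.14 on the log2 scale (SE 0.0386, adjusted p = 0.0292). Every orb2-delta-zz library was lower, but the call was lost without any 1 of the 6 libraries, with adjusted p between 0.0534 and 0.0990, and with TPM (0.173). Rpt5 had the largest change of the canonical genes at 2-3h. It had 2492, 2907 and 2784 counts in orb2-delta-zz, against 2319, 2013 and 1766 in wild type. The libraries did not overlap, and the log2 fold change of 0.43 (SE 0.137) did not pass the test (adjusted p = 0.180). Without the first wild type library, the one low in maternal RNA, it was 0.53 with an adjusted p of 0.0259. Without the third, the one high in maternal RNA, it was 0.33 and was not called. In earlier embryos Rpt5 had log2 fold changes of -0.03 at 0-1h and -0.09 at 1-2h.

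The ubiquitin receptor Rpn10 had 3114, 2858 and 2967 counts in orb2-delta-zz at 2-3h, against 2327, 2376 and 2531 in wild type. All orb2-delta-zz libraries were higher, and the log2 fold change of 0.31 (SE 0.0990) had an adjusted p of 0.186. At 2-3h 13 of the 18 regulatory particle genes had a positive log2 fold change, with a median of 0.09, and 6 of the 14 core particle genes did, with a median of -0.01. None of these 32 was called there, and the median over all genes tested at 2-3h was -9.42e-05.

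In the lid, Rpn7, a scaffold subunit, fell in orb2-delta-zz at 1-2h. It had 3445, 3294 and 3218 counts in orb2-delta-zz, against 4555, 4767 and 3897 in wild type (log2 fold change -0.40, SE 0.0956, adjusted p = 0.0460). The genotypes were apart. The call held without the second or the third wild type library and was lost without any of the other 4, with adjusted p between 0.0679 and 0.195, and with TPM (0.159). At 0-1h and 2-3h its log2 fold changes were -0.17 and 0.16. Rpn8 had 4425, 4250 and 4097 counts in orb2-delta-zz at 0-1h, against 4862, 4604 and 5074 in wild type, and fell by 0.19 (SE 0.0493, adjusted p = 0.0245). These libraries did not overlap. The call held without the first orb2-delta-zz or the second wild type library, was lost without any of the others (adjusted p between 0.0734 and 0.0844) and was lost with TPM (0.224). Rpn8 overlaps Slik on the opposite strand by 2653 bases, and Rpt1 lies within CG17985 on the same strand. In all, 16 of the 32 canonical genes overlap another annotated gene, and the sources used here do not say whether reads were counted by strand.

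The genotype effect was not shown to differ between time points for any member. In a joint limma fit of 7470 genes, 0 of 35 members were called in each of the 3 differences between time points, beside 0.12% of genes for 1-2h minus 0-1h, 1.89% for 2-3h minus 0-1h and 0.79% for 2-3h minus 1-2h. Among canonical genes 1, 3 and 4 had an unadjusted p under 0.05, a mark whose share over all genes was not computed. A fit with a separate spread for each time point also called 0 members. The largest canonical difference was that of Rpn7, 0.57 for 2-3h minus 1-2h (SE 0.189, adjusted p = 0.278). Rpt5 had a difference of 0.52 for 2-3h minus 1-2h (SE 0.145, adjusted p = 0.145) and 0.46 for 2-3h minus 0-1h (adjusted p = 0.174). Without the first wild type library of 2-3h, the joint fit called Rpn7, Rpt5, Rpn11, Rpn2, Prosalpha2 and Prosalpha4 for 2-3h minus 1-2h and Rpn7 and Rpt5 for 2-3h minus 0-1h. In data simulated with each time point's own spread, the joint fit made too many false calls for differences that involve 2-3h. That spread came from all 18 libraries. The fit without the first wild type library of 2-3h was not simulated, so how far its calls can be trusted was not tested.

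Over time, core and regulatory particle mRNAs moved apart in both genotypes. The tables of the 3 time points were normalized separately, so these levels are set side by side in TPM, a share of the RNA measured, with no test. The 14 core particle genes had a median ratio of TPM at 2-3h over 0-1h of 1.23 in orb2-delta-zz and 1.14 in wild type. The 18 regulatory particle genes had a median ratio of 0.385 in orb2-delta-zz and 0.350 in wild type. For genes with a mean of at least 10 TPM at 0-1h, the median ratio was 0.645 in orb2-delta-zz (6201 genes) and 0.666 in wild type (6162 genes). For 15 of the 18 regulatory particle genes all 2-3h libraries were below all 0-1h libraries, in each genotype, and for 2 they were all above. For the core particle they were all below for 1 of 14 genes in each genotype, and all above for 9 in orb2-delta-zz and 8 in wild type. Of all genes at 10 TPM or more, 63.4% in orb2-delta-zz and 56.9% in wild type were all below, and 22.2% in orb2-delta-zz and 22.3% in wild type all above. The wild type ratio without the first 2-3h library was 0.351 for the regulatory and 1.16 for the core particle.

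The lid and the base showed the lowest ratios. Rpn8 had 131 TPM at 0-1h, 69.2 at 1-2h and 21.02 at 2-3h in orb2-delta-zz, and 146, 79.3 and 21.2 TPM in wild type. These ratios of 0.160 in orb2-delta-zz and 0.145 in wild type were the lowest of the canonical genes. Rpn11 had 392, 140 and 75.7 TPM at the 3 time points in orb2-delta-zz and 349, 146 and 62.3 TPM in wild type. Rpn1, a base scaffold that binds ubiquitin and shuttle factors, had 220, 118 and 54.9 TPM in orb2-delta-zz and 220, 123 and 48.9 TPM in wild type. By subcomplex, the median ratio was 0.291 in orb2-delta-zz and 0.308 in wild type for the lid, 0.397 in orb2-delta-zz and 0.333 in wild type for the base subunits other than ATPases, and 0.535 in orb2-delta-zz and 0.485 in wild type for the ATPases.

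The regulatory particle had 3 exceptions. Rpt4, an ATPase of the base, had 362, 424 and 503 TPM at 0-1h, 1-2h and 2-3h in orb2-delta-zz and 379, 437 and 496 TPM in wild type. Rpn12, a lid subunit, had 273, 330 and 366 TPM in orb2-delta-zz and 268, 300 and 329 TPM in wild type. Rpn6, another lid subunit, stayed near its first level, with a ratio of 1.04 in orb2-delta-zz and 0.952 in wild type. In the core, the beta ring had a median ratio of 1.28 in orb2-delta-zz and 1.24 in wild type, led by Prosbeta1 with 1.37 in orb2-delta-zz and 1.33 in wild type. The alpha ring had 0.971 in orb2-delta-zz and 1.01 in wild type.

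**Figure D4:**
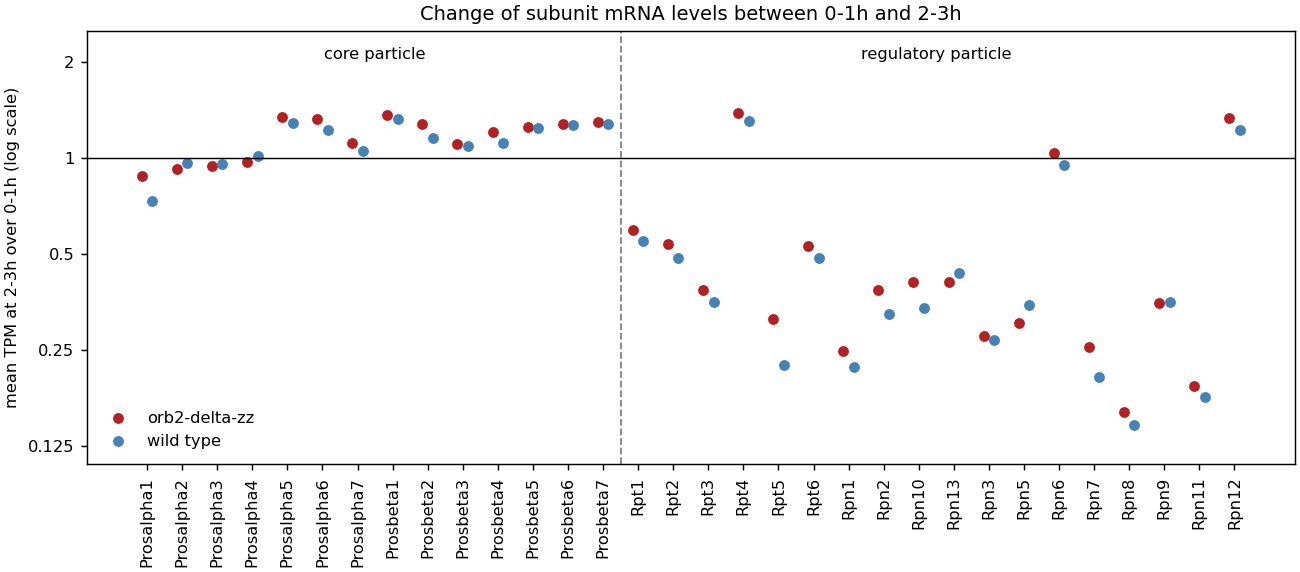
Mean TPM at 2-3h over mean TPM at 0-1h for each canonical subunit gene, on a log axis, with the core particle left and the regulatory particle right of the dashed line (red, orb2-delta-zz; blue, wild type). Core genes lie between 0.733 and 1.37, and all but Rpt4, Rpn6 and Rpn12 of the regulatory particle lie below 0.6 in both genotypes.

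Both genotypes shared this pattern, and 30 of 32 canonical genes lay on the same side of a ratio of 1 in orb2-delta-zz and wild type. The genes of the regulatory particle made up 53.2%, 53.7% and 53.1% of the summed canonical TPM in orb2-delta-zz libraries of 0-1h, against 52.4%, 52.0% and 53.6% in wild type. At 1-2h the share was 42.4%, 44.7% and 43.8% in orb2-delta-zz, against 43.4%, 47.5% and 43.9% in wild type, where the highest value is the library low in early zygotic RNA. At 2-3h it was 33.3%, 34.5% and 34.4% in orb2-delta-zz, against 33.4%, 32.4% and 32.5% in wild type. The genotypes overlapped at each time point, while the 3 time points did not overlap. The summed TPM of the core was 4330, 5146 and 5089 at the 3 time points in orb2-delta-zz and 4386, 4744 and 4980 in wild type, and that of the regulatory particle 4943, 3982 and 2630 in orb2-delta-zz and 4881, 3879 and 2429 in wild type.

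**Figure D5:**
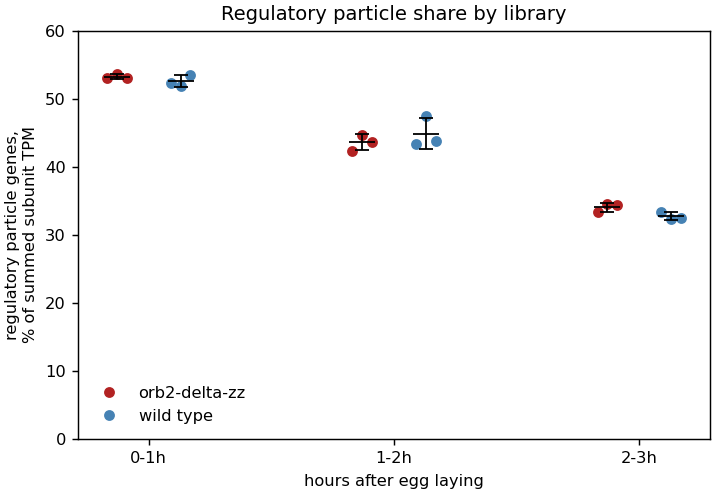
Share of the 18 regulatory particle genes in the summed TPM of the 32 canonical genes, in percent, with 1 point per library and black lines for the mean and SD of 3 libraries (red, orb2-delta-zz; blue, wild type). The share lies between 52.0% and 53.7% at 0-1h, 42.4% and 47.5% at 1-2h and 32.4% and 34.5% at 2-3h, with overlapping genotypes.

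The spread between libraries was also read gene by gene. In wild type embryos of 2-3h the median SD of the canonical genes was 0.0756 on the log2 scale, against 0.219 for the 4306 genes in the same range of level, although these libraries differed in maternal RNA. In orb2-delta-zz of the same age that median was 0.0858, against 0.0943 for genes in that range. At 1-2h the canonical genes spread slightly more than genes of their range, 0.0768 against 0.0709 in orb2-delta-zz and 0.149 against 0.141 in wild type. At 0-1h the values were 0.0435 against 0.0504 in orb2-delta-zz and 0.0592 against 0.0626 in wild type. Of the canonical genes Rpn11 varied most in wild type at 2-3h, with 2685, 1790 and 1454 normalized counts, highest in the library lowest in maternal RNA. In orb2-delta-zz it had 2406, 2251 and 2329 counts.

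Genes that assemble, regulate or feed the proteasome were read from 2 further lists. Of 11 tested genes of the accessory list, 1 rose and 2 fell in orb2-delta-zz at 0-1h, 1 rose at 1-2h and 1 fell at 2-3h, beside 21.3%, 7.37% and 3.28% of all genes called at these time points. PI31, a proteasome-binding factor, had 2189, 2254 and 2191 normalized counts in orb2-delta-zz at 0-1h, against 1572, 1652 and 1704 in wild type. It was higher in every orb2-delta-zz library, with a log2 fold change of 0.43 at 0-1h (SE 0.0505, limma adjusted p = 0.000283) and 0.38 at 1-2h (SE 0.0836, adjusted p = 0.0357). The call at 1-2h held without the first or the second wild type library and was lost without any of the other 4 (adjusted p between 0.106 and 0.163) and with TPM (0.0554). The transcription factor cnc, a relative of vertebrate NRF factors that in flies activates proteasome subunit genes with its partner maf-S, fell by 0.22 at 0-1h (adjusted p = 0.00335, and 0.0807 with TPM), and maf-S fell by 0.48 (adjusted p = 0.00747). Usp14, a deubiquitinase of the proteasome, had 3079, 3024 and 3115 counts in orb2-delta-zz at 2-3h, against 4351, 4385 and 4846 in wild type, and fell by 0.56 (SE 0.0952, adjusted p = 0.0317). Its libraries did not overlap, and the call held without the first wild type library and was lost without any of the other 5 (adjusted p between 0.0590 and 0.163). The list had median log2 fold changes of -0.06, -0.12 and -0.09 at the 3 time points.

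Of 20 tested genes for ubiquitin supply, delivery and conjugation, 4 rose and 1 fell in orb2-delta-zz at 0-1h, where 21.3% of all genes were called. Of these 20, limma called 0 at 1-2h and at 2-3h. At the 3 time points 7, 3 and 1 of them had an unadjusted p under 0.05, and the share of all genes under this mark was not computed. The polyubiquitin genes Ubi-p5E and Ubi-p63E rose by 0.29 (adjusted p = 0.00418) and 0.24 (adjusted p = 0.0183) on the log2 scale. The ubiquitin shuttle gene Ubqn rose by 0.24 (adjusted p = 0.0198) and eff, an E2 conjugating enzyme, by 0.14 (adjusted p = 0.0427). RpS27A, which encodes ubiquitin fused to a ribosomal protein, fell by 0.18 (adjusted p = 0.0400). The call for eff was lost without any 1 of the 6 libraries (adjusted p between 0.0516 and 0.145). That for RpS27A was lost without each library but the third orb2-delta-zz library, and that for Ubi-p63E without the first or second orb2-delta-zz or the first wild type library (adjusted p between 0.0665 and 0.0859). That for Ubqn was lost without the second orb2-delta-zz library (adjusted p = 0.0731). With TPM the calls for Ubqn, eff and RpS27A were lost (adjusted p between 0.0532 and 0.0683). The median log2 fold change of this list was 0.08 at 0-1h, 0.06 at 1-2h and -0.02 at 2-3h.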

How the data were processed

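Total RNA was extracted with TRIzol and made into strand-marking libraries (NEBNext Ultra II Directional), per the labels' protocols. The submitters' processing notes name Trim Galore 0.6.5, Salmon 1.9.1 and DESeq2 1.42.1. The sources used here do not give their roles, the genome build or the strand setting. The authors deposited, for each time point, normalized counts (a signal scaled between the 6 libraries) and TPM. Whole reads could not be recovered (28.9% to 68.7% of low values in a library were whole within 0.1, where 95% were needed), so depth is unknown and count models were not used. The totals of 3.36e+07 to 3.85e+07 per library are set by the scaling.

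For each time point, log2(normalized count + 1) was fitted in limma 3.58.1 with a trend (R 4.3.3). A gene needed a mean of at least 10 in that table. P-values are two-sided, were adjusted over all genes by Benjamini-Hochberg and were called under 0.05. The added 1 makes fold changes of low genes too small. Differences between time points came from a joint fit of the 18 libraries with 1 shared spread. Symbols came from Ensembl's BDGP6.54 annotation, for 7557 of 7617, 8126 of 8188 and 9076 of 9141 listed genes. Of the accessory list 12 of 13 symbols matched, of the ubiquitin list 23 of 23. The members and lists were chosen with earlier results of these data known. Named are the paralogs past the filter, the called members, the 3 canonical genes with the largest change at each time point, the ends of each subcomplex by TPM and the called genes of the 2 lists. Other genes are named for their change over time or place and were chosen after their values were seen. Alternatives were TPM, other pseudocounts and filters, trimmed mean rescaling, a replicate block, the joint fit and each library left out. The fits were tested on simulated data, where the joint fit made too many false calls for differences involving 2-3h once each time point had its own spread. Promoter and protein sequences were not analysed here. Figures were drawn with matplotlib 3.10.9.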

Additional observations from a re-analysis of the deposited data

How the results depend on the processing

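Replicate numbers did not pair the samples: deviations of equal numbers correlated between genotypes at -0.34 to 0.04 at 0-1h, 0.08 to 0.22 at 1-2h and -0.27 to -0.11 at 2-3h, although at 1-2h each library correlated best with its own number. Canonical genes called at 0-1h numbered 2 with TPM, 1 with the replicate block, 1 in the joint fit and 1 to 3 without single libraries, against 4. At 1-2h they numbered 0 with TPM, 0 with the replicate block and 0 to 2 without single libraries, against 2. At 2-3h they numbered 4 in the joint fit (Prosbeta5, Rpn10, Rpn2 and Rpt5) and 0 to 3 without single libraries, against 0. Paralogs called at 0-1h numbered 1 to 2 without single libraries, against 1. Accessory genes called numbered 1 in the joint fit at 0-1h and 3 without any single library, against 3. At 1-2h they numbered 0 with TPM, 0 with the block, 3 in the joint fit and 0 to 2 without single libraries, against 1. At 2-3h they numbered 0 with the block, 2 in the joint fit and 0 to 3 without single libraries, against 1. Ubiquitin genes called at 0-1h numbered 2 with TPM, 1 with the block, 0 in the joint fit and 1 to 4 without single libraries, against 5. At 1-2h and 2-3h they numbered 1 in the joint fit, and at 1-2h 0 to 1 without single libraries, against 0. Members whose genotype effect differs numbered 0 to 2 for 2-3h minus 0-1h and 0 to 6 for 2-3h minus 1-2h without single libraries. Without the first wild type library of 2-3h, 1666 of all genes were called at that time point, against 296, and without the second of 1-2h 1261, against 597. With normalized counts the ratio of 2-3h over 0-1h was 1.43 in orb2-delta-zz and 1.33 in wild type for the core and 0.462 in orb2-delta-zz and 0.410 in wild type for the regulatory particle. Signs reversed for rare paralogs when single libraries were left out. The log2 fold change of Rpt3R ranged from -0.040 to 0.074 at 0-1h, with -0.013 and -0.0069 without the second or the last orb2-delta-zz library, and from -0.200 to 0.058 at 1-2h, and that of Rpt6R from -0.605 to 0.031 at 1-2h and from -0.672 to 0.014 at 2-3h. The cause of these changes was not tested. The joint fit shares 1 spread, while the median SD in wild type was 0.0719 at 0-1h and 0.239 at 2-3h. For named genes, 212 of 249 values under other settings and 132 of 192 without single libraries kept their direction and their side of the threshold; 33 and 47 lost the call, 4 and 7 gained one, and 0 and 6 changed sign.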
